A study of Mus musculus with 2 samples.

Results

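The regions described here are the stretches of the mouse autosomes where reads of the IgG library piled up. They were chosen by the IgG reads themselves. Each read of mapping quality 25 or higher was extended to 300 bp in its own direction, stretches covered by at least 9 extended reads were taken, and stretches at most 300 bp apart were joined. This gave 1331 IgG regions, out of 8037 stretches of that kind when the higher of the libraries was taken at each base. The Zfp322a library gave 7278 regions by the same rule. Chromatin came from E14 murine ES cells, labelled with a C57BL/6 background and grown in GMEM with fetal bovine serum and LIF. Sonicated chromatin was precipitated with anti-ZNF322 antibody for the Zfp322a library or with anti-Rabbit IgG antibody for the IgG library, with no treatment or genetic change named for either. Whether both came from the same culture is not given in the sources used here. For each antibody 1 library was sequenced, from 1 cell line, so no value below has a replicate check. Because the IgG height chose the regions, it is given as a description, and the Zfp322a height in the same regions, which the choice did not use, is the measurement reported.

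In ChIP-seq an IgG antibody serves as a control because it is directed at no chromatin protein, so its library shows how reads pile up without the antigen of interest. Such background is known to be uneven: open promoters shear and are recovered easily, repeats can be present in more copies than the assembly holds, and PCR and sequencing favour some base compositions. Peak callers set the ChIP library against this control, so a place high in both may be left out of a list of binding sites.

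The IgG library held 4843481 mapped reads, of which 3794069 lay on autosomes with a mapping quality of at least 25, and the Zfp322a library 5187475 and 4036226. The ratio of the library totals was 1.07. Heights are given as counted, without scaling, and no pair of reads in a library shared both 5′ end and strand. A region at the threshold rests on 9 fragments. Intervals are exact Clopper-Pearson 95% intervals and cover counting error only.

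In a few genes the IgG reads stopped close to the ends of coding exons, and at the *Pou5f1* enhancer close to the ends of a cloned stretch, so these sequences are shown first. Coordinates are those of mm9, and each line is printed 5′ to 3′. Capitals mark the coding exon and lower case the intron beside it, on the strand of the gene. Nearly all IgG reads at these edges lay on the side of the capitals.
Usp16 coding exon 13, 5′ edge (chr16:87479341-87479400, plus strand): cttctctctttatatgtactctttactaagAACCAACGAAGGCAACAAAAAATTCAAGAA
Usp16 coding exon 13, 3′ edge (chr16:87480005-87480064, plus strand): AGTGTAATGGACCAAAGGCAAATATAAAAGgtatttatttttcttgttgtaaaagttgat
Patz1 coding exon 1, 3′ edge (chr11:3191858-3191917, plus strand): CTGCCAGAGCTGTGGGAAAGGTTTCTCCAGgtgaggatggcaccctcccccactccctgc
Patz1 coding exon 5, 5′ edge (chr11:3207621-3207680, plus strand): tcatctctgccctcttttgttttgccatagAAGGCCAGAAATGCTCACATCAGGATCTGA
Lin28a coding exon 3, 5′ edge (chr4:133563981-133564040, minus strand): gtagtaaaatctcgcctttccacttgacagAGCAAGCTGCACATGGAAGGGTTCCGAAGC
Lin28a coding exon 3, 3′ edge (chr4:133563796-133563855, minus strand): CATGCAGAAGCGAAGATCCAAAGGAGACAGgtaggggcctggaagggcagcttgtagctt

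At the 3′ edge of *Usp16* exon 13, 21 IgG reads lay within 100 bp on the exon side, 0 crossed the edge with at least 5 bases on both sides and 0 lay within 100 bp on the intron side, and the Zfp322a library had 4, 0 and 0. At the 5′ edge of *Patz1* exon 5 the counts were 17, 0 and 0 in IgG and 12, 0 and 1 in Zfp322a. At the 5′ edge of *Lin28a* exon 3 they were 8, 0 and 0 in IgG and 15, 0 and 0 in Zfp322a. Each of the other 3 edges had 1 IgG read across it, with 15 inside at the 5′ edge of *Usp16* exon 13, 20 at the 3′ edge of *Patz1* exon 1 and 14 at the 3′ edge of *Lin28a* exon 3. In Zfp322a 7, 13 and 19 reads lay inside these, and 1, 0 and 0 crossed. Over the 337243 splice edges of 21416 protein-coding genes, 26.7% of the IgG reads and 27.5% of the Zfp322a reads at an edge crossed it. Where the reads at the printed edges came from was not tested.

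The CR4 enhancer of *Pou5f1*, which encodes the pluripotency factor Oct4, lies outside genes. The study cloned it for reporter assays, and the 3′ parts of its cloning primers matched the genome at 1 place each. Between them lie 291 bp (chr17:35640810-35641100, plus strand), printed with the primer matches in capitals because the IgG reads filled this stretch and stopped at its ends.
Pou5f1 CR4: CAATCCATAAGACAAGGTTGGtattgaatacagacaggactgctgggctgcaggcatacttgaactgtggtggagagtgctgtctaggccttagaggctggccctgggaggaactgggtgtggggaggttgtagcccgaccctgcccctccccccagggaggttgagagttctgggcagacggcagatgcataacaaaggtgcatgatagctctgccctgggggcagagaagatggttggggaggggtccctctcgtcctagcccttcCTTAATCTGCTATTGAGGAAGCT

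Most IgG regions were small and low. Their median length was 88 bp, from 1 to 9452 bp, and together they covered 240211 bp. The IgG height was 9 in 736 regions (55.3%) and 9 or 10 in 1044 (78.4%), which puts the bulk of them close to the height that chose them. A height of 15 or more was reached by 82 regions and a height of 20 or more by 53, with 218 reads as the highest. At the threshold, the 736 regions with an IgG height of 9 had a median Zfp322a height of 5, and 17.8% of them reached 9 in Zfp322a. The 1768 stretches just outside, with an IgG height of 8, had a median of 4, and 12.7% reached 9.

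In the Zfp322a library the median height in the 1331 regions was 6 reads, from 0 to 217, where the median 500-bp bin of the autosomes had 1. In 394 regions (29.6%, interval 27.2 to 32.1) the Zfp322a height was 9 or more, against 0.226% of all 500-bp bins. The Zfp322a height was above the IgG height in 237 regions (17.8%). At the other end, 236 regions (17.7%) had a Zfp322a height of 0 to 2, among them 28 without any Zfp322a read. Of the 7278 Zfp322a regions, 5.48% (interval 4.97 to 6.03) held an IgG height of at least 9, against 0.038% of all 500-bp bins. The median IgG height in the Zfp322a regions was 4.

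The share with a Zfp322a height of at least 9 went up with the IgG height. It was 17.8% at an IgG height of 9, 30.2% at 10, 44.2% at 11 to 12, 55.0% at 13 to 14 and 75.9% at 15 to 19. All 23 regions with an IgG height of 20 to 29 and all 30 with 30 or more had a Zfp322a height of at least 9, with medians of 25 and 41.5. In the 82 regions with an IgG height of at least 15, the median ratio of the Zfp322a height to the IgG height was 0.93, from 0.20 to 1.94, and 33 were higher in Zfp322a. Regions of IgG height 20 or more thus all reached 9 reads in both libraries, while most regions of height 9 or 10 did not. The median length rose as well, from 37 bp at an IgG height of 9 to 1213 bp at 30 or more. Longer regions have more chances of a high Zfp322a value, and the rise was not corrected for this.

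**Figure D1:**
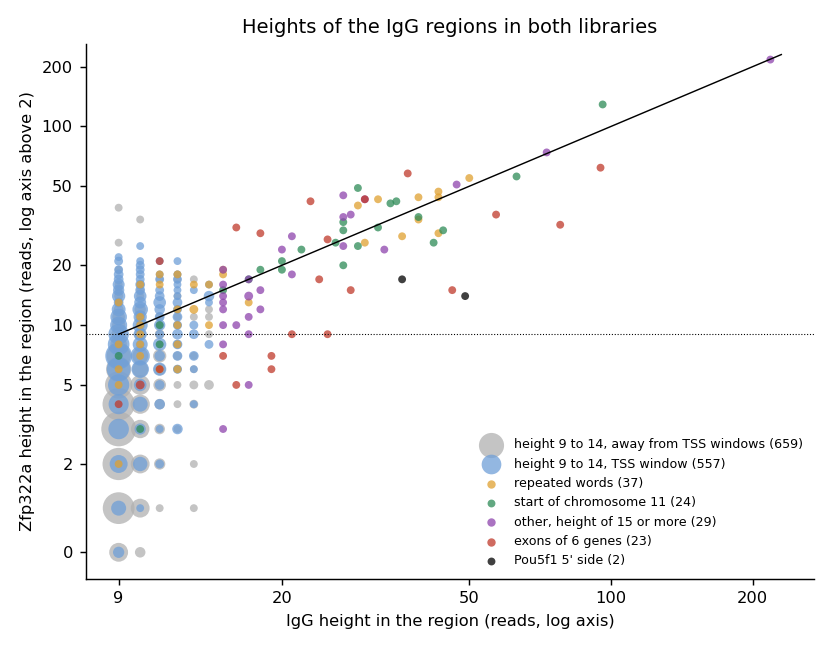
Height of each IgG region in the IgG library (horizontal, log axis) and in the Zfp322a library (vertical, log axis above 2), in reads. Colours are the groups of regions described in the text, larger points hold more regions, the solid line marks equal heights and the dotted line a Zfp322a height of 9. The regions with an IgG height of 20 or more all lie at or above the dotted line, while those of height 9 spread from 0 to 39.

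By position, the largest class was the TSS window, 1000 bp upstream to 100 bp downstream of an annotated transcript start, with 597 regions (44.9%, interval 42.2 to 47.6), where 3.44% of the 500-bp bins overlap such a window. The 7278 Zfp322a regions had 62.0% in this class. Away from TSS windows, 149 IgG regions (11.2%, interval 9.55 to 13) had their middle in a coding exon, against 1.19% of bins, and 308 (23.1%) had it in an intron, against 36.9% of bins. The 235 regions outside genes made up 17.7%, against 56.9% of bins. The remaining classes were 5′ UTRs with 15 regions, non-coding exons with 14 and 3′ UTRs with 13. When the TSS class was not put first, 242 regions (18.2%) had their middle in a coding exon. By the wider measure of an overlap of at least 1 base, 366 regions (27.5%) touched a coding exon.

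The Zfp322a height differed between these classes. In TSS windows the median Zfp322a height was 8, and 258 of 597 regions (43.2%, interval 39.2 to 47.3) reached 9, against 4.29% of the bins in TSS windows. In introns the median was 4 and 47 of 308 (15.3%) reached 9. Outside genes the median was 5 and 44 of 235 (18.7%) reached 9. In coding exons the median was 5 and 36 of 149 (24.2%) reached 9. In 3′ UTRs 0 of the 13 did, and their heights ran from 1 to 7. All classes but the TSS windows are to be read against the bins away from TSS windows, of which 0.0808% reached a Zfp322a height of 9.

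The regions were rich in G and C. In windows of 500 bp around their middles the median GC content was 59.2%, against 41.8% over all bins and 61.6% in the Zfp322a regions. The median ratio of observed to expected CpG was 0.57, against 0.157 over all bins, and it was 0.783 in the regions of TSS windows and 0.268 outside genes. Windows of 60 to 70% GC held 499 regions (37.5%) but 0.611% of the bins, and 39.3% of these regions reached a Zfp322a height of 9 against 12.4% of such bins. At 50 to 60% GC the shares were 16% of 580 regions and 0.959% of bins. The 29 regions of less than 40% GC had a median Zfp322a height of 12, and 20 of them (69%) reached 9, against 0.00559% of such bins. Among these 29 were regions of repeated sequence (median GC content 39.8%) and regions over *Usp16* exons, both described below. Their share is thus not one of base composition alone.

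The strands were even: the median share of forward reads was 50%, and 3 regions had reads on a single strand. The forward and reverse 5′ ends were separated by a median of 242 bp, against 230 bp in the Zfp322a regions. The rule itself favours such a separation, since reads spread evenly about a point separate by the extension of 300 bp. In 274 of the 1328 regions with reads on both strands the separation was under 150 bp.

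Sorted by these features, with limits chosen after the values were seen, the 1331 regions fell into 7 groups. Regions of IgG height 9 to 14 without any other mark made up 1216 (91.4%), of which 557 lay in TSS windows and 659 elsewhere. The 115 others held 41.9% of the IgG reads counted in regions. They were 23 regions over the coding exons of 6 genes, 2 on the 5′ side of *Pou5f1*, 24 at the start of chromosome 11, 37 of repeated words and 29 further regions with an IgG height of at least 15.

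The first of these groups came from genes whose IgG reads were concentrated in coding sequence. With at least 50 IgG reads in the coding sequence and a coding density at least 10 times the intron density, a rule set after the values were seen, 6 of 18526 genes with introns were found, which is 0.0324%. Among genes past the density limit, the next by coding reads, *Gm10717*, had 43. The 6 were *Usp16*, which encodes a deubiquitinase of histone H2A, the zinc finger genes *Patz1*, *Sall4*, *Zfp322a* and *Zfp553*, and *Lin28a*, whose RNA-binding protein blocks let-7 maturation. Over all 21416 genes the IgG density was 3.65 reads per kb in coding sequence, 3.04 in UTRs and 1.90 in introns, and the Zfp322a density 4.51, 3.96 and 2.06.

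*Usp16* had 450 IgG reads in its 2475 bp of coding sequence (182 per kb), 5 in UTRs and 71 in 25610 bp of introns (2.77 per kb). The Zfp322a library had 156, 12 and 71 in the same parts. Its intron counts were equal in the libraries, and its coding count was 0.347 times as high in Zfp322a as in IgG. The gene held 12 IgG regions on chromosome 16, with IgG heights from 9 to 78 and Zfp322a heights from 4 to 32. The tallest, chr16:87479154-87480259 over exon 13, had heights of 78 in IgG and 32 in Zfp322a, and chr16:87482891-87483621 over exons 16 and 17 had 46 and 15. All 17 coding exons held IgG reads, from 17.5 to 317 per kb, and 14 lay under an IgG region. In 16 of the 17 the IgG density was the higher of the libraries. Of the IgG reads at its splice edges 10 crossed and 408 lay inside.

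*Patz1* had 439 IgG reads in coding sequence (213 per kb), 8 in UTRs and 63 in introns, and in Zfp322a 267, 16 and 93. Its regions chr11:3190377-3192149 over exon 1 and chr11:3207438-3208293 over exon 5 had IgG heights of 95 and 57 and Zfp322a heights of 62 and 36. The smaller ones, over exons 2 and 3, had IgG heights of 19 and 24 and Zfp322a heights of 7 and 17. Coding exons 1, 2, 3 and 5 carried between 227 and 234 IgG reads per kb. Exon 4, of 138 bp, had 0 IgG reads and 3 Zfp322a reads. The reads of *Patz1* in the IgG library thus covered 4 of the 5 coding exons of this transcript at a like density and left out the fourth. A further region in a TSS window of the gene, chr11:3189220-3189333, had heights of 10 and 7.

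*Lin28a* had 74 IgG reads in coding sequence (118 per kb), 8 in UTRs and 53 in introns, against 111, 9 and 45 in Zfp322a. Its 3 regions, over exons 2, 3 and 4, had IgG heights of 25, 18 and 16 and Zfp322a heights of 27, 29 and 31. Exon 1, of 31 bp, held no read in either library. *Sall4* had 135 IgG reads in coding sequence (42.2 per kb), 5 in UTRs and 49 in introns, against 274, 1 and 41 in Zfp322a. Its region over exon 2, chr2:168580018-168582021, had heights of 23 in IgG and 42 in Zfp322a, and that over exon 4 had 11 and 21. Both genes were denser in Zfp322a than in IgG in every coding exon with reads.

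*Zfp322a* and *Zfp553* carry their coding sequence in 1 exon. *Zfp322a*, the gene of the protein precipitated, had a region at chr13:23448083-23449508 with heights of 37 in IgG and 58 in Zfp322a. Between its start and stop codon lay 115 IgG reads, 0 crossed an end and 1 lay within 1000 bp on either side. The Zfp322a library had 172, 0 and 1. The study also cloned full-length *Zfp322a* into overexpression and retroviral plasmids. *Zfp553*, at chr7:134378819-134380541, had heights of 30 and 43, with 113 IgG and 187 Zfp322a reads in coding sequence, 5 and 7 in UTRs and 6 and 11 in introns.

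The genes therefore did not share a ratio in these libraries. The Zfp322a share of the coding reads of both libraries was 25.7% (interval 22.3 to 29.4) in *Usp16* and 37.8% (interval 34.2 to 41.5) in *Patz1*. It was 60% (interval 52.6 to 67.1) in *Lin28a*, 59.9% in *Zfp322a*, 62.3% in *Zfp553* and 67% (interval 62.2 to 71.5) in *Sall4*. In intervals of counting error, *Usp16* and *Patz1* lay below the other 4 and apart from each other. The intervals hold no spread between replicate libraries, so whether this order would recur was not tested. The genes were chosen by their IgG coding reads, and that choice by itself favours a lower Zfp322a share. These shares compare 2 libraries, not conditions, and where the reads came from was not tested.

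**Figure D2:**
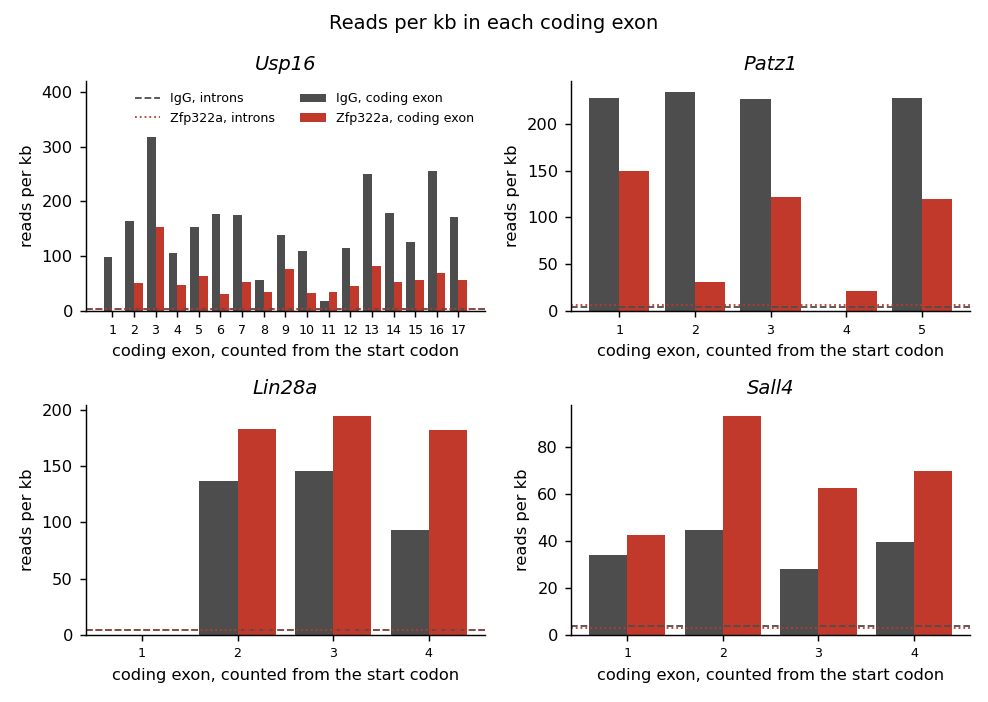
Reads per kb in each coding exon of *Usp16*, *Patz1*, *Lin28a* and *Sall4* (bars, numbered from the start codon) in the IgG and Zfp322a libraries, with the density over the introns of the gene (lines). Bars stand far above the intron lines in nearly all exons, IgG is higher in *Usp16* and *Patz1* and Zfp322a in *Lin28a* and *Sall4*, and exon 4 of *Patz1* has 0 IgG reads.

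On the 5′ side of *Pou5f1* the pattern was one of blocks. The CR4 stretch printed above held 44 IgG reads (151 per kb), with 0 across its ends and 11 within 1000 bp on either side. The first IgG read inside began 2 bp after the start of the stretch and the last ended 1 bp before its end (35641099). The Zfp322a library had 21, 0 and 10. The region there, chr17:35640705-35641274, had an IgG height of 36 and a Zfp322a height of 17. The second region, chr17:35642431-35643216 at the promoter, had heights of 49 and 14. From 400 bp upstream to 50 bp downstream of the TSS lay 74 IgG and 20 Zfp322a read 5′ ends, with 5 and 4 in the 450 bp before that window and 6 and 5 in the 450 bp after it. The start codon lies 63 bp after the TSS. Within 100 bp of it, 12 IgG reads lay upstream, 0 crossed and 1 lay downstream. Both blocks were higher in IgG, the library without the antibody to Zfp322a.

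The fragment of the *Nanog* proximal promoter that the study also cloned was not piled up. It held 3 IgG and 3 Zfp322a reads, with 14 and 12 within 1000 bp on either side, and no IgG region. The study also cloned the CR1 region of *Pou5f1*, which was not located here.

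**Figure D3:**
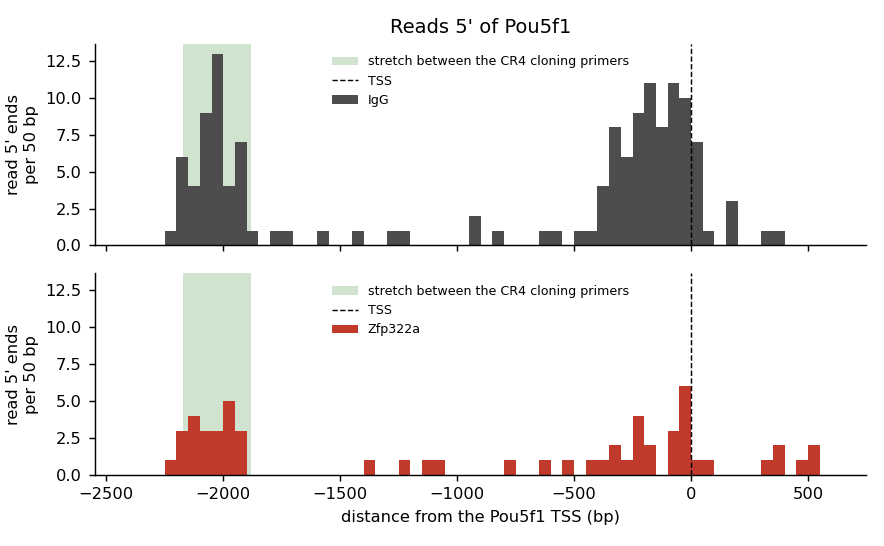
Read 5′ ends per 50 bp by distance from the *Pou5f1* TSS (dashed line) in the IgG library (upper) and the Zfp322a library (lower), with the stretch between the CR4 cloning primers shaded. The reads form a block over the shaded stretch and another block that ends near the TSS, with few reads between, and both blocks are higher in IgG.

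A list of ES cell genes had 40 members, most of them transcription factors or their partners. It also held *Lin28a*, *Fgf4*, *Tdgf1* and the endoderm markers *Gata4* and *Gata6*. Of the 40, 38 were found on autosomes, 1 was on the X chromosome and 1 symbol was not in the annotation. IgG regions lay in 8 of the 38 or in the 1000 bp before them, 16 regions in all, where 4.9% of 21281 protein-coding gene symbols on autosomes had such a region. They were *Pou5f1*, *Sall4*, *Zfp322a*, *Patz1* and *Lin28a*, described above, and 3 genes with low regions. *Sox2* had a region in its coding exon with heights of 9 in IgG and 4 in Zfp322a, and *E2f1* one in its TSS window with 10 and 7. *Tcfap4*, a helix-loop-helix factor, had an intronic region at chr16:4558514-4558645 with 10 IgG reads at its highest and 34 Zfp322a reads, and one in its TSS window with 9 and 4. Of the 6 genes with reads in coding exons, 4 are on this list, which was chosen with earlier results of these data known.

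Sharp ends were also found away from these genes. An edge was called where at least 8 IgG reads lay within 100 bp inside, none crossed and none lay within 100 bp outside. By this rule, which uses IgG reads only, 88 regions (6.61%) had an edge and 48 had one on both sides, giving 136 edges. In the Zfp322a library, which the rule did not use, 1580 reads lay within 100 bp inside these edges, 53 crossed them and 51 lay outside, so that 3.25% of the reads at the edges crossed. At 37 of the 136 the Zfp322a reads met the rule by themselves, and at 81 none crossed or lay outside. Of the 136 edges, 39 lay in the regions of repeated words described below, with 603 of the 1580 Zfp322a reads inside. In those regions a median of 80.9% of the IgG reads had a mapping quality under 25 and were left out. Whether this filter set the edges there was not tested.

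Of these edges 21 lay within 4 bp of an annotated exon edge, 15 of them in *Usp16*, 4 in *Patz1*, 1 in *Lin28a* and 1 in *Eef2*. There, 137 Zfp322a reads lay inside and 2 crossed (1.44%). The other 115 edges lay farther from exon edges, with 1443 Zfp322a reads inside and 51 crossing (3.41%). These are sums over edges, to which tall edges add most. Edge by edge, the Zfp322a reads met the rule, which also asks for 8 reads inside, at 3 of the 21 and at 34 of the 115. No Zfp322a read crossed or lay outside at 14 of the 21 and at 67 of the 115. At 2 of the edges where the rule was not met, no Zfp322a read lay inside.

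**Figure D4:**
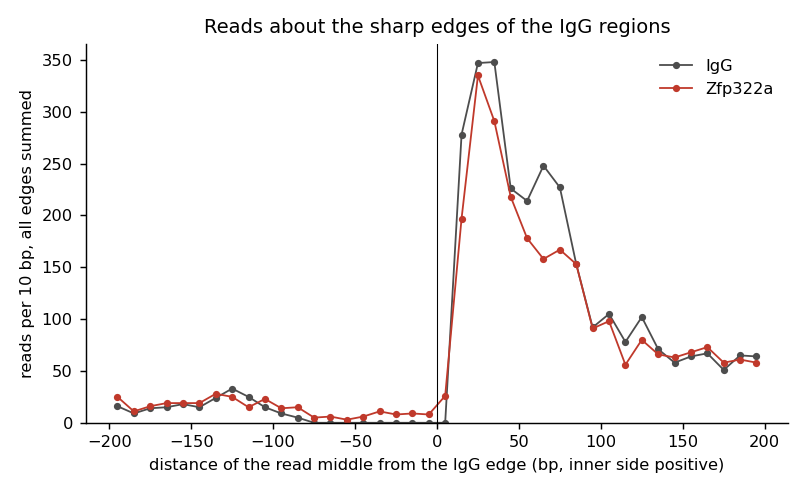
Reads per 10 bp by distance of the read middle from the 136 IgG edges, inner side positive, summed over all edges in the IgG and Zfp322a libraries. The rule sets the IgG counts just outside to 0, and the Zfp322a counts, which it does not set, reach 335 per 10 bp inside and stay between 3 and 15 in the 100 bp outside.

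Edges of regions away from exons are shown for 3 places where most words of 20 bases occur once in the genome, with capitals on the side of the reads.
Chromosome 11, outside genes (chr11:108873331-108873390, plus strand): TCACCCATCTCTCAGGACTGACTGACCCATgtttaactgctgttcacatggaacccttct
Chromosome 9, outside genes (chr9:24346444-24346503, plus strand): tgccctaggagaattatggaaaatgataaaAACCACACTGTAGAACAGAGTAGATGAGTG
Chromosome 4, intron of Cdk5rap2 (chr4:70039259-70039318, plus strand): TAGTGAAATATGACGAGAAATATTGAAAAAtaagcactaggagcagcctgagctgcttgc

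At the first, 40 IgG and 41 Zfp322a reads lay inside, 0 and 0 crossed and 0 and 1 lay outside. Its region, chr11:108872776-108873602, had heights of 73 and 74. At the second the counts were 34 and 23 inside with 0 and 0 crossing, and its region chr9:24346260-24346828 had heights of 33 and 24. At the third, in the intron of *Cdk5rap2*, a centrosomal protein gene, they were 33 and 41 inside with 0 and 0 crossing, and the region chr4:70038951-70039545 had heights of 30 and 43. Reads of mapping quality under 25 are not part of these counts, and they made up 58.3% of all mapped IgG reads of the region on chromosome 9 and 52.4% of those in *Cdk5rap2*.

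The highest IgG region, chr17:39979778-39986000, overlapped the start of *AY036118* and had heights of 218 in IgG and 217 in Zfp322a, with 2439 and 2443 reads. In the RefSeq gene table of a later assembly, GRCm38, the gene that overlaps the start of *AY036118* is *Rn18s-rs5*, named for ribosomal RNA. This region and 28 others, away from the groups named so far and with an IgG height of at least 15, had a median Zfp322a height of 16, and 26 of the 29 reached 9. Among them were chr5:147072330-147073151 in *Cdk8*, with heights of 47 and 51, and chr19:61275389-61275941 outside genes, with 27 and 45. Among the 29 the lowest ratio of heights was in the TSS window of *Acsf3*, chr8:125299295-125299571, with 15 in IgG and 3 in Zfp322a, and the next at chr10:127878714-127879231 outside genes, with 17 and 5.

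At the start of chromosome 11, 24 regions lay before 3100000 and covered 55590 bp, with a median length of 1481.5 bp. They lay around *Sfi1*, a centrin-binding protein gene, *Drg1* and *Pisd-ps1*. *Sfi1* alone had 12 regions over its coding exons. Its introns were dense as well, with 301 IgG reads in coding sequence (82.5 per kb) and 2919 in introns (50.7 per kb), with 344 and 2915 in Zfp322a, and 30.4% of the IgG reads at its splice edges crossed them. The highest, chr11:3090922-3094604, had heights of 96 and 129, and the longest, chr11:3052295-3061746, had 35 and 42. Over the 24 regions the IgG reads numbered 3478 and the Zfp322a reads 3515.

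Regions of repeated words were those where at least 50% of the words of 20 bases in 500 bp around the middle had a second exact copy in the genome. There were 45 (3.38%), against 0.921% of the Zfp322a regions, and 37 of them lay outside the groups above. In those 37 the median share of reads with a mapping quality under 25, which were left out of the heights, was 80.9%, and 25 had an edge. Their median heights were 12 in IgG and 13 in Zfp322a. Of the 37, 28 (75.7%) reached 9 in Zfp322a, against 29.6% of all 1331 regions. The 37 were also longer, with a median of 292 bp against 88 bp, and taller in IgG, with 12 against 9. The difference in share is thus not one of repeated words alone, and the share for bins of repeated words was not computed. The tallest, chr9:35112546-35113298, had 50 and 55. Neighbouring regions of *Gm10801* on chromosome 2, chr2:98502487-98503239 and chr2:98503685-98504279, had 43 and 44, and 32 and 43. Near the start of the known sequence of chromosome 9, chr9:3035559-3036632 had 43 and 47. In the 500 bp around the middle of each of the 1331 regions, no word of 20 bases was shared with the mitochondrial genome.

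The low regions were chosen by an IgG height of 9 to 14, and that choice by itself favours a lower height in the other library. In the 557 of TSS windows the median Zfp322a height was 7, from 0 to 25. Of these, 40.4% (interval 36.3 to 44.6) reached 9, against 4.29% of the bins in TSS windows. In the 659 elsewhere the median Zfp322a height was 4, from 0 to 39. Of those, 11.7% (interval 9.33 to 14.4) reached 9, against 0.0808% of the bins away from TSS windows. Zfp322a heights of 0 to 2 were found in 46 of the former and 189 of the latter. In 195 of the 1216 the Zfp322a height was above the IgG height. Without chromosome 8 the shares at 9 or more were 40.6% of 436 and 13% of 469.

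Chromosome 8 held 315 of the 1331 regions (23.7%) with 5.21% of the known autosomal bases. That is 25.2 regions per 10 Mb, against 0.493 on chromosome 14, the lowest, a median of 4.43 over the 18 other autosomes and 12 on chromosome 11, the next highest. Its regions were low: 255 had an IgG height of 9 or 10, and 3 had 15 or more. In all reads of mapping quality 25 or more, chromosome 8 had the highest IgG density of the autosomes, 2.22 reads per kb against 0.98 to 2.09 on the others. In Zfp322a it had 1.80 reads per kb, within the range of the others (1.06 to 2.40), so its ratio of Zfp322a to IgG reads was 0.814, below the range of 0.902 to 1.23. If the libraries came from different cultures, a difference between antibodies and one between cultures cannot be told apart in this ratio. It had 35.4 Zfp322a regions per 10 Mb, close to the 35.7 of chromosome 2. On chromosome 8, 66 of 315 regions (21.0%) reached a Zfp322a height of 9, and on the other autosomes 328 of 1016 (32.3%).

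Among the 919 genes that the IgG regions overlapped, 15 had coding exons under 2 or more regions. Of these 15 genes, 6 were on chromosome 8, which held 23.7% of all IgG regions. *Ptger1*, a prostaglandin E receptor gene, had 3 regions of IgG height 9 with Zfp322a heights of 4, 10 and 6. *Gdf15*, a secreted member of the TGF-beta superfamily, had 2 of height 10 with 14 and 6. *Wdr83* had heights of 10 and 9 with 2 and 0. *Best2*, *Ankle1* and *Tepp* had IgG heights from 9 to 14 and Zfp322a heights from 2 to 14. In these 6 genes the coding density in IgG was between 1.21 and 3.06 times the intron density. *Ptger1* had 25 IgG reads in coding sequence (20.6 per kb) and 13 in introns (9.41 per kb), and *Gdf15* 18 and 19 (19.8 and 16.4 per kb). The remaining genes were *Usp16*, *Sfi1*, *Patz1*, *Lin28a*, *Sall4*, *Gm10801*, *Ankrd24*, *Jmjd8* and *Afap1l1*, of which the last 3 had IgG heights from 9 to 11.

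**Figure D5:**
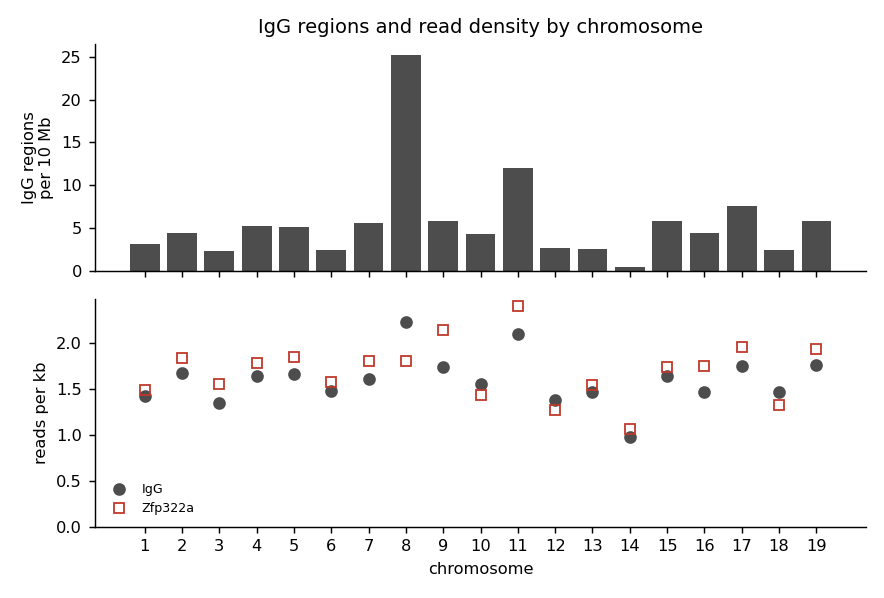
IgG regions per 10 Mb of known sequence (bars, upper) and reads per kb with a mapping quality of at least 25 in the IgG and Zfp322a libraries (points, lower) for each autosome. Chromosome 8 has 25.2 regions per 10 Mb and an IgG density of 2.22 reads per kb, while its Zfp322a density of 1.80 lies among those of the other autosomes.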

How the data were processed

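For each library the deposited file lists mapped reads with position in mm9, strand and mapping quality, a score of how surely a read is placed that was set when the authors aligned it. The submitters' processing notes name CASAVA 1.4, BWA and Partek 6.6. The authors' files of reads in peak regions were not used. Reads were matched to a genome of the same build and to its GENCODE annotation. Tools were numpy 2.4.6, numba 0.67.0, scipy 1.17.1 and pandas 2.3.3 under Python 3.11.15, and matplotlib 3.10.9 for plots. Height was the highest pileup within a region, so longer regions had more chances of a high value. With 1 library for each antibody no test between antibodies was made. Named regions were the 10 highest, the 3 highest of each class, the extremes of the ratio of heights at an IgG height of at least 15, genes with 2 or more regions over coding exons, listed ES cell genes and cloned fragments. The regions and lists were chosen with earlier results of these data known. A gene was represented by 1 coding transcript, and the groups, the edge rule and the rule for coding density were chosen after values were seen. The share of repeat-masked bases was not computed, because the reference is not masked. Region and edge finding was checked on simulated reads.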

Additional observations from a re-analysis of the deposited data

How the results depend on the processing

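The number of regions, their TSS share, their coding-exon share, their share with a Zfp322a height of at least 9 and their median Zfp322a height were recomputed under 60 combinations of result and alternative, and 33 stayed within the interval of the reported value, or for the number within 1.5 times of it. In the order just named, the values that did not were as follows. A pileup of 7 gave 7344 regions, 33.6%, 9.38%, 15.5% and 4. A pileup of 11 gave 303 regions, 47.9%, 55.8% for the Zfp322a share and 10. All reads, whatever the mapping quality, gave 2566 regions, 29.97%, 6.63%, 38.8% and 7. Reads that were not extended gave 99 regions, 26.3%, 19.2%, 58.6% and 9. An extension of 200 bp gave 471 regions and 35.0% for the Zfp322a share. Without joining there were 2085 regions. The TSS share was 37.3% with protein-coding transcripts only and 50.5% with a window of 500 bp on each side. With the Zfp322a height divided by the ratio of library totals, 24.8% reached 9 and the median was 5.6. In settings chosen after seeing the data, the Zfp322a share was 32.3% without chromosome 8, and leaving out the regions of repeated words or of the 6 coding-exon genes moved nothing beyond its interval. The count thus moved most with the threshold and the extension, and also with the limit on mapping quality and with joining. Most regions lie at 9 or 10 reads, close to the threshold. No paired analysis was possible because each antibody has 1 library and no test was made.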
